A study of Homo sapiens with 2 samples.

Results

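HAMP encodes hepcidin, the peptide hormone by which the liver limits the entry of iron into the blood. The array values of HAMP and of 9 further genes of iron handling, TFRC, TFR2, TF, FTH1, FTL, SLC40A1, HFE, ID1 and SMAD7, were examined in HepG2 cells treated with hawk tea extract (HTE). Members were chosen by their role in iron handling with earlier results of these arrays known, and HAMP was selected on the size of its measured fall, so its own ratio is a description and supports nothing by itself. The 10 genes had 16 probes that are not controls, on 34 spots of each array, out of 23752 genes or unnamed transcripts that could be measured.

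HepG2 is an established human hepatocellular carcinoma line that keeps many hepatocyte functions, among them the secretion of plasma proteins. One culture received dimethyl sulfoxide (DMSO), the vehicle, and the other received HTE, an extract of a herbal tea made from a plant of the laurel family, both for 24 h. The sample labels give HTE at 200 µg/mL, whereas the study's text names a higher dose for this profiling, so the dose is not settled. Each condition had 1 Agilent 1-colour (Cy3) array of total RNA, so there was no replicate check, no test between the conditions was possible, and array and treatment cannot be told apart.

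In the body, hepcidin is released by hepatocytes and binds ferroportin, the iron exporter encoded by SLC40A1, which is then removed from the cell surface and broken down. Transcription of HAMP is driven mainly by bone morphogenetic proteins (BMPs) acting through SMAD proteins, with HFE, TFR2 and hemojuvelin as co-regulators, and in inflammation by interleukin-6 through STAT3. TFRC brings transferrin-bound iron into the cell and the ferritins FTH1 and FTL store it. Their mRNAs are further controlled by iron regulatory proteins that bind iron-responsive elements, so an array, which reads mRNA, does not report the amount of these proteins.

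GGCGCC, the letters of the BMP-responsive element, was looked for with 5 other motifs on both strands in the 250 bases before to 50 bases after each start of 9 genes, TFRC, TFR2, TF, FTH1, FTL, SLC40A1, HFE, ID1 and SMAD7. RefSeq on GRCh38.p14 held promoters for 7 of them, 10 promoters in all, and FTH1 and TFR2 had no entry in the table. Of the 35116 promoters in the table, 19.2% held GGCGCC. It was present in TFRC and TF, and these windows are shown 5′ to 3′ with the element in capitals, because the motif is the one through which BMP signals are known to act. TF has a pair of annotated starts, and the last window belongs to the downstream one.
TFRC, chr3:196082274-196082303, minus strand: acctgctgccttGGCGCCttttcccttggc
TF, chr3:133661829-133661858, plus strand: tggctggggtcgGGCGCCagcccggcgcac
TF, chr3:133661865-133661894, plus strand: ctcccccgactcGGCGCCgcccctacccca
TF, chr3:133746366-133746392, plus strand: aaagggacgcggGGCGCCggaggctgc

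The element lay 201 bases before the start in TFRC, and 157, 121 and 15 bases before a start in TF. The array ratios of both genes were close to 0 (values given further on). ID1, a classical BMP target, held no GGCGCC in this window. The 100 bases before its start (chr20:31605189-31605288, plus strand) are shown with the overlapping TATAAA and TTTATA matches in capitals, which lay 31 and 33 bases before the start.
ID1: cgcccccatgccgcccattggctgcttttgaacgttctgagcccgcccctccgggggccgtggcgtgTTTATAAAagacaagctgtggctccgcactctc

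A TATA box match, TATAAA, was found in 4049 of the 35116 promoters, and was present also 33 bases before the start of TFRC and 35 bases before 1 of the starts of SMAD7. Another SMAD7 promoter held TGACAGAGC, a match to the antioxidant response core TGACNNNGC (13.3% of all promoters). No match to the STAT site TTCNNNGAA (7.66% of all promoters), the SMAD-binding palindrome GTCTAGAC (0.202%) or the E-box CACGTG (7.26%) was found in a promoter of the 7 genes, and FTL, SLC40A1 and HFE held none of the 6 motifs. A match to these letters is a description of the sequence, and binding of a factor was not measured.

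On the arrays, the signal of a spot is a background-subtracted intensity. To place both arrays on one scale, log2 of the signal was taken and the array's 75th percentile was subtracted, which was a signal of 4020.0 on the DMSO array and 3570.3 on the HTE array. A log2 ratio below is the HTE value minus the DMSO value on this scale, so a ratio of -1 or 1 is a 2-fold difference, and the median ratio of all genes was 0. Of the spots, 60.6% on the DMSO array and 56.6% on the HTE array were well above background by the scanner software's own call, and 0 were saturated. The error that could be measured was technical. Over replicate spots, the SD of a probe's log2 ratio had a median of 0.051 (689 probes), and over probes of the same gene it had a median of 0.16 (4137 genes). The scanner software's own error was 10.0% of the signal for bright spots, or 0.20 on a log2 ratio.

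Each ratio was computed again under 10 alternatives of the processing, or 11 for genes with several probes. For a gene with 1 usable probe, a clear signal on both arrays and no outlier spot, some alternatives cannot change the ratio. These are the choices on dim probes, outlier spots and the mean over probes, and counts of alternatives below include them. The scaling mattered most. E1A is an adenoviral sequence whose transcript is added to the sample as a spike-in, and its probes were brighter on the HTE array by 0.89 on the log2 scale, so that scaling to them lowers every ratio by about the size of the 2-fold limit. The RNA content of the cultures was not measured, and which scaling is nearer to it was not tested.

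The 11 hepatocyte markers were all well above background on both arrays, with log2 ratios between -0.36 for FGB and 0.32 for AHSG, and none passed 2-fold. Their summed signal was 965213 on the DMSO array and 897346 on the HTE array. Among markers of other cell types, 3 of 5 leukocyte, 2 of 4 endothelial, 2 of 4 fibroblast and stellate and 1 of 4 erythroid genes were measured, whereas CD3E, CDH5, KDR, COL1A2, DCN, HBB and ALAS2 were not well above background on either array and LYZ and HBA1 had no matched probe. Of those measured, CD14 (log2 ratio -1.77) and PECAM1 (-1.82) were at least 2-fold lower in HTE. The summed signal was 9151 and 8075 for the leukocyte genes, 1046 and 347 for the endothelial genes, 1441 and 1219 for the fibroblast genes and 12366 and 8065 for the erythroid gene, in the order DMSO and HTE. Their part in the values of the iron genes was not tested. With RNA of whole cultures, a change in the number of cells and a change in RNA per cell cannot be told apart.

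The 10 genes did not move as a block. HAMP was 4.77-fold lower in HTE, and the BMP-SMAD targets SMAD7 and ID1 were lower by less than 2-fold. The iron exporter SLC40A1 and the hepatocyte iron sensor TFR2 were about 2-fold higher, and TF, TFRC and FTH1 had log2 ratios between -0.056 and 0.18. FTL had 0.39 on its brightest probe and -0.023 on the other. With spike-in scaling SLC40A1, transferrin and the ferritins turned to lower values, and only TFR2 stayed above 0, at 0.082. Transferrin also turned without scaling (-0.047), so the split below depends on the scaling. In numbers, 5 genes were lower and 5 higher, with a median log2 ratio of 0.034, where 49.0% of all genes were lower. At 2-fold, 1 gene was lower (HAMP, against 3.03% of all genes) and 2 were higher (SLC40A1 and TFR2, against 5.25%), and 7 stayed under it. At 1.5-fold, 3 were lower (10.5% of all genes) and 2 higher (12.4%). The count of falls includes the gene chosen for its fall.

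**Figure D1:**
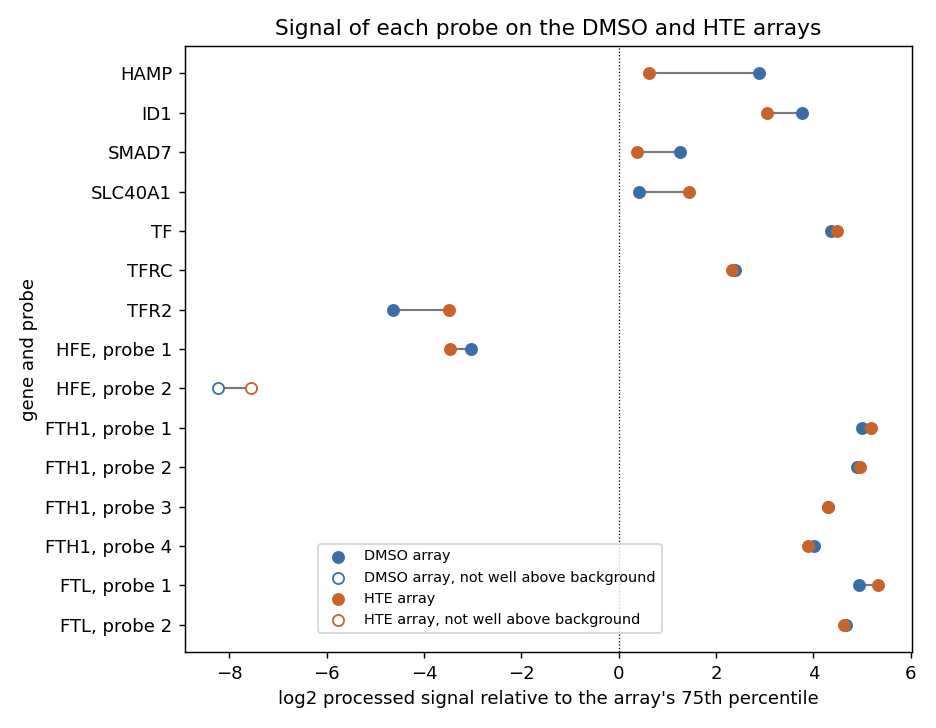
Log2 processed signal relative to the array's 75th percentile (horizontal axis) for the 15 probes with usable spots (vertical axis), with the DMSO array in blue and the HTE array in orange, and open circles where a probe was not well above background. HAMP moved from 2.87 to 0.62, SLC40A1 from 0.42 to 1.44, and the brightest FTL probe from 4.95 to 5.34, while the points of TF, TFRC and the other FTL probe lie close together; levels of different probes cannot be set against each other.

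The hormone itself was read by 1 probe with 1 spot (transcript NM_021175). Its signal was 29472 in DMSO and 5491 in HTE, or 2.87 and 0.62 as log2 level relative to the 75th percentile. HAMP was therefore a bright transcript on the DMSO array, well above background on both arrays and not saturated, and the fall was not one into the background. The log2 ratio was -2.25, and only 0.0674% of all genes had a lower one. Neither HAMP spot was called an outlier by the scanner software, although the local background around it carried an outlier call on both arrays. Under the 10 alternatives of the processing the ratio ranged from -3.32 to -2.22, or from -2.42 to -2.22 without the spike-in scaling, and it was past 2-fold in all 10. The choices on dim probes, outlier spots and the mean over probes could not change the HAMP ratio and left it at -2.25. With 1 spot there is no replicate value for it on either array.

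In the order of log2 ratios of 14636 genes with a name and a clear signal on both arrays, HAMP ranked 7 among the falls, between CYP24A1 and MKI67 on the lower side and LINC00298 and GSTA2 on the other. CYP24A1, the vitamin D 24-hydroxylase, had a signal of 13872 in DMSO and 1710 in HTE and a ratio of -2.85. MKI67, a proliferation marker, had -2.27. LINC00298, a long non-coding RNA, had -2.25, and GSTA2, a glutathione transferase, had -2.22. Their likeness to HAMP is that of rank in a single difference between 2 arrays, and CYP24A1 was lower than HAMP by more than the software error of 0.20.

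SMAD7, an inhibitory SMAD that is induced by BMP signalling and dampens it, had a signal of 9663 in DMSO and 4641 in HTE, a log2 ratio of -0.89 or 1.85-fold lower. ID1, a transcriptional regulator and a standard readout of BMP signalling in hepatocytes, had 54382 in DMSO and 29521 in HTE, a log2 ratio of -0.71 or 1.64-fold lower. Both probes had 1 spot, and both ratios were over 3 times the software error of 0.20. That error is a near-fixed share of the signal and does not cover the spread between arrays or cultures. Of all genes, 4.24% had a lower ratio than SMAD7 and 7.33% a lower ratio than ID1. SMAD7 lay 0.11 on the log2 scale short of the 2-fold limit and passed it without scaling (-1.06). In all 10 alternatives SMAD7 ranged from -1.95 to -0.87 and ID1 from -1.78 to -0.71, so HAMP, SMAD7 and ID1 were lower in HTE under every one of them. The gap between HAMP and SMAD7 was 1.37 on the log2 scale, larger than between any other neighbours in the order of the 10 ratios. HAMP was chosen for its large fall, so a wide gap follows from the choice and is a description only.

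**Figure D2:**
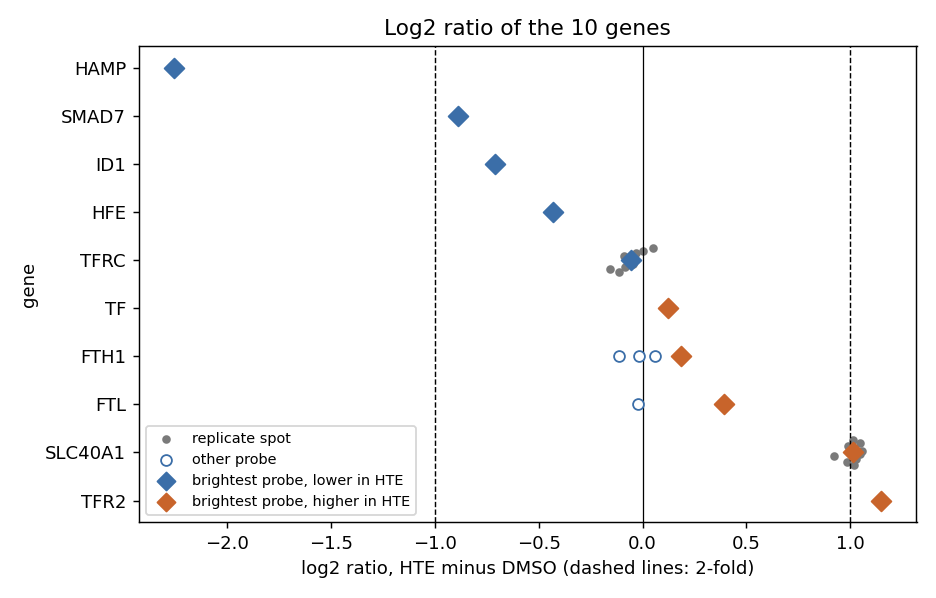
Log2 ratio, HTE minus DMSO (horizontal axis), of the 10 genes (vertical axis), where diamonds are the brightest probe of a gene, open circles its other probes, grey points the replicate spots of TFRC and SLC40A1, and dashed lines mark 2-fold. HAMP, which was chosen for its fall, stands at -2.25, 1.37 below SMAD7, and SLC40A1 (1.01) and TFR2 (1.15) lie at the upper limit. Under scaling to the spike-in the ratios of SLC40A1, TF, FTH1 and FTL turn negative.

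SLC40A1, the ferroportin gene, was measured by 1 probe printed on 10 spots. In DMSO the spots had signals from 5248 to 5585 and in HTE from 9403 to 9935, with means of 5397 and 9656. The spots of both arrays did not overlap. The log2 ratio was 1.01, or 2.01-fold higher in HTE, with a range over the spots of 0.92 to 1.06, a median of 1.02 and an SD of 0.039. This SD covers printing and scanning within 1 array only and says nothing about cultures. SLC40A1 lay 0.011 inside the 2-fold limit, so its place among the 2-fold changes is not firm: it was past 2-fold in 7 of 10 alternatives, with 0.93 after scaling to the median and 0.84 without scaling, and the spike-in scaling turned its sign (-0.056). Of all genes, 5.14% had a higher ratio than SLC40A1.

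TFRC, the transferrin receptor of most cells, was also printed on 10 spots. Its signals ran from 20172 to 22518 in DMSO and from 17572 to 19063 in HTE, with means of 21117 and 18043. After scaling, the levels overlapped. The log2 ratio was -0.056, with spots from -0.16 to 0.051 and an SD of 0.059, so the mean lay within 1 SD of 0. The sign was negative in all 10 alternatives, from -1.12 to -0.026.

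**Figure D3:**
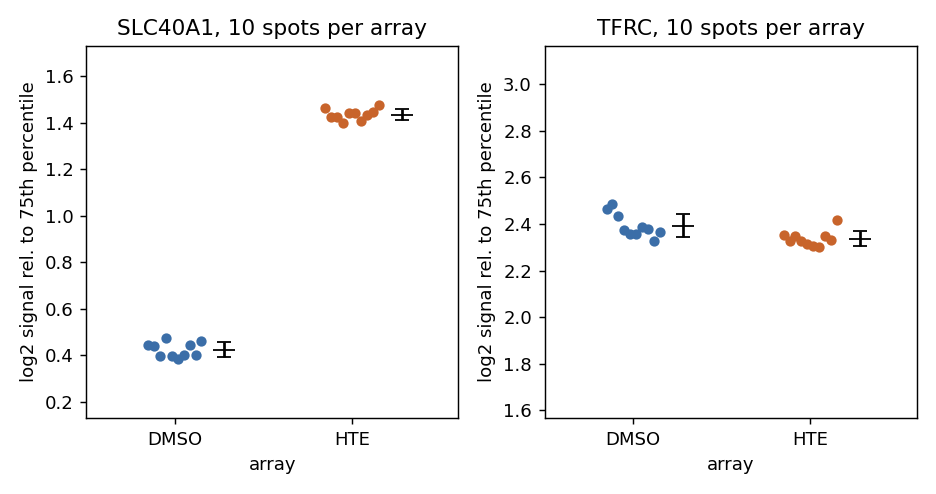
Log2 processed signal relative to the array's 75th percentile (vertical axes) of the 10 replicate spots of SLC40A1 (left) and TFRC (right) on the DMSO and HTE arrays (horizontal axes), with the mean and SD over spots beside them. The SLC40A1 spots of both arrays are apart by a mean of 1.01 and the TFRC spots overlap, with a mean difference of -0.056; spots are technical repeats on 1 array and not replicates of a treatment.

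TFR2, the transferrin receptor that hepatocytes use to sense iron, had a dim probe with 1 spot. Its signal was 161 in DMSO and 318 in HTE, both well above background, and the log2 ratio was 1.15 or 2.22-fold higher. The software error was 0.26 on the log2 ratio, larger than the 0.20 of the bright probes. TFR2 was past 2-fold in 7 of 10 alternatives and was 0.78 with normexp background correction, 0.98 without scaling and 0.082 with spike-in scaling. Its ratio stayed above 0 in all 10.

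HFE, the protein mutated in classical haemochromatosis, which works with TFR2 upstream of HAMP, was dim too. The probe for NM_000410 had a signal of 493 in DMSO and 325 in HTE, a log2 ratio of -0.43 or 1.35-fold lower, against a software error of 0.23. The probe for NM_139011 read 13.3 and 18.9, not well above background on either array, and gives no ratio. HFE and TFR2 thus differed in sign, with HFE lower in all 10 alternatives (-1.50 to -0.34) and TFR2 higher.

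TF, transferrin, the plasma carrier of iron and a main secreted protein of hepatocytes, had a signal of 82795 in DMSO and 80148 in HTE, a log2 ratio of 0.12. This is within the software error of 0.20, and the sign turned without scaling (-0.047) and with spike-in scaling (-0.94).

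The ferritin heavy chain gene FTH1, whose product oxidises iron for storage, had 4 probes. Their log2 ratios were 0.18, 0.060, -0.015 and -0.11, in the order of their signals. The brightest read 127967 in DMSO and 129033 in HTE and the dimmest 64784 and 53160. The probes disagreed in sign over a gap of 0.30, and all 4 were within the software error of 0 on their own. With spike-in scaling the ratio of FTH1 was -0.88.

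FTL, the ferritin light chain gene, had 3 probes, of which 2 were used. The brightest of these read 124041 in DMSO and 144359 in HTE, a log2 ratio of 0.39, and the other 101813 and 88969, a ratio of -0.023. The remaining probe read 252513 and 228936, with a ratio of 0.030, and was left out because its spot was called an outlier on the DMSO array. The gap between the probes in use was 0.41, so a higher FTL rests on 1 of the 3 probes. FTH1 and FTL have processed pseudogenes in the genome, and binding of their transcripts to these probes was not tested. With spike-in scaling FTL was -0.68.

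**Figure D4:**
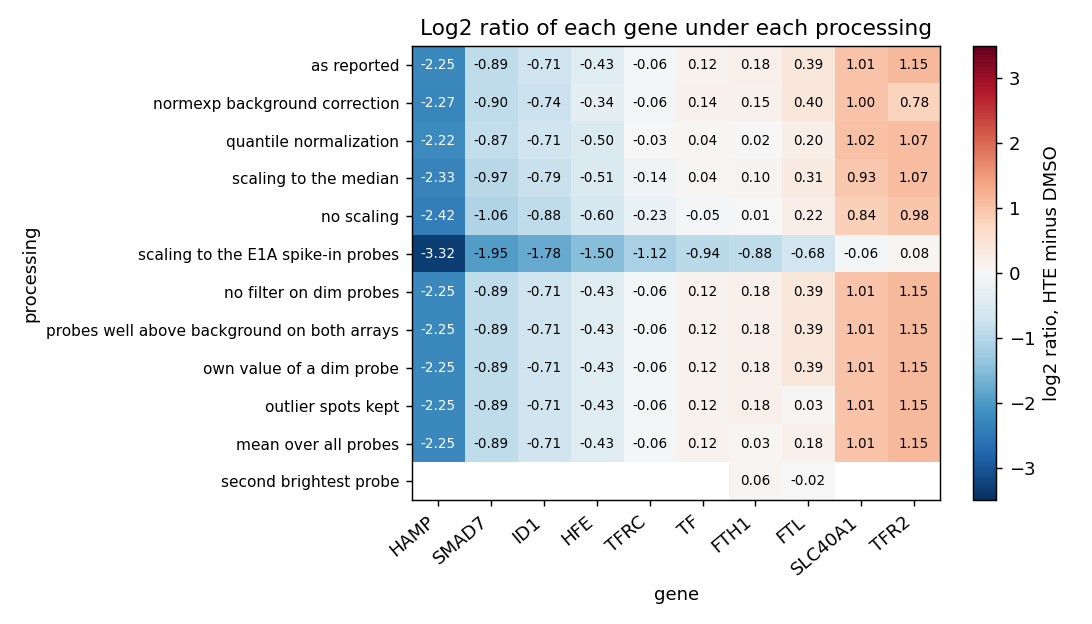
Log2 ratio, HTE minus DMSO (colour and printed value), of each of the 10 genes (horizontal axis) as reported and under each alternative of the processing (vertical axis), with blank cells where a gene has no further probe. HAMP stays between -3.32 and -2.22 in every line, whereas scaling to the spike-in lowers each ratio by about 1, turns TF, FTH1, FTL and SLC40A1 negative and brings TFR2 to 0.082.

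The signalling genes upstream of HAMP changed less than HAMP, which was chosen for its large fall, so this contrast is a description only. Of 16 BMP ligands, receptors and SMAD relay genes, 13 were measured, 7 lower and 6 higher, with a median log2 ratio of -0.026 against 0 for all genes. ACVR1, a BMP type I receptor with a role in hepatocyte hepcidin control, passed 2-fold, 1 of 13 against 5.25% of all genes. It had a signal of 1676 in DMSO and 3085 in HTE, a ratio of 1.05, and its other probe gave 1.34. The call of ACVR1 did not hold with normexp background correction (0.92), median scaling (0.97), no scaling (0.88) or spike-in scaling (-0.015). BMP2 (0.58) and BMP6 (0.34), the main ligands for HAMP, were both dim. The largest fall was FKBP1A (-0.24), a protein that holds ACVR1 inactive, and its 5 probes ran from -0.24 to 0.21. HJV, which encodes hemojuvelin, and BMPR1B were not well above background on either array, and ERFE had no matched probe. With spike-in scaling all 13 were lower.

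The other BMP-SMAD target genes were lower in HTE, 7 of 7, with a median of -0.34, where 49.0% of all genes were lower. SMAD6, an inhibitory SMAD, had a signal of 14446 in DMSO and 5668 in HTE, a ratio of -1.18. SMAD9, a SMAD that BMPs induce, had 4162 and 1426, a ratio of -1.37, and its other probe gave -2.09. Both were past 2-fold, 2 of 7 against 3.03% of all genes. The remainder were smaller, with ID4 at -0.34, BAMBI at -0.30, ID2 at -0.19 and ID3 at -0.14. The ratios of ID2 and ID3 were within the software error given above for bright spots, although the other ID2 probe gave -0.34. The count of 7 therefore includes ratios that this error does not separate from 0. ATOH8 was well above background in DMSO only, where it read 190 against 54.7 in HTE, and was at least 1.78-fold lower. The measured members were lower in each of the alternatives run. The list was chosen with earlier results known, and its genes were read on the same 2 arrays as HAMP, SMAD7 and ID1.

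In the interleukin-6 and STAT3 arm, 8 of 8 genes were measured, 2 lower and 5 higher, where 49.0% of all genes were lower. The count turned to 5 lower and 3 higher without scaling and to 8 lower with spike-in scaling. IL6 was taken as no change in the first count because it was well above background on the DMSO array only and its bound was under 1-fold. The median was 0.089, and -0.062 without scaling and -0.96 with spike-in scaling. IL6R, the interleukin-6 receptor, had 766 in DMSO and 1362 in HTE, a ratio of 1.00 at the 2-fold limit, and 1.61 on its other probe. The brightest probe was under the limit with normexp correction (0.98), quantile normalization (0.91), median scaling (0.92), no scaling (0.83) and spike-in scaling (-0.066). SOCS3, a STAT3 target that feeds back on the pathway, had -0.41, the largest fall, and STAT3 itself 0.057.

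Of 5 other transcription factors that act at the HAMP promoter, CEBPA and CREB3L3 were past 2-fold in opposite directions. This is 1 of 5 lower, against 3.03% of all genes, and 1 of 5 higher, against 5.25%. CEBPA, a liver factor that activates HAMP, had 27382 in DMSO and 10849 in HTE, a ratio of -1.16. CREB3L3, an endoplasmic reticulum stress factor of the liver, had 19012 and 43684, a ratio of 1.37, or 0.31 with spike-in scaling. HNF4A (0.13), USF1 (0.16) and USF2 (0.092) were close to 0, and 4 of the 5 were lower without scaling.

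**Figure D5:**
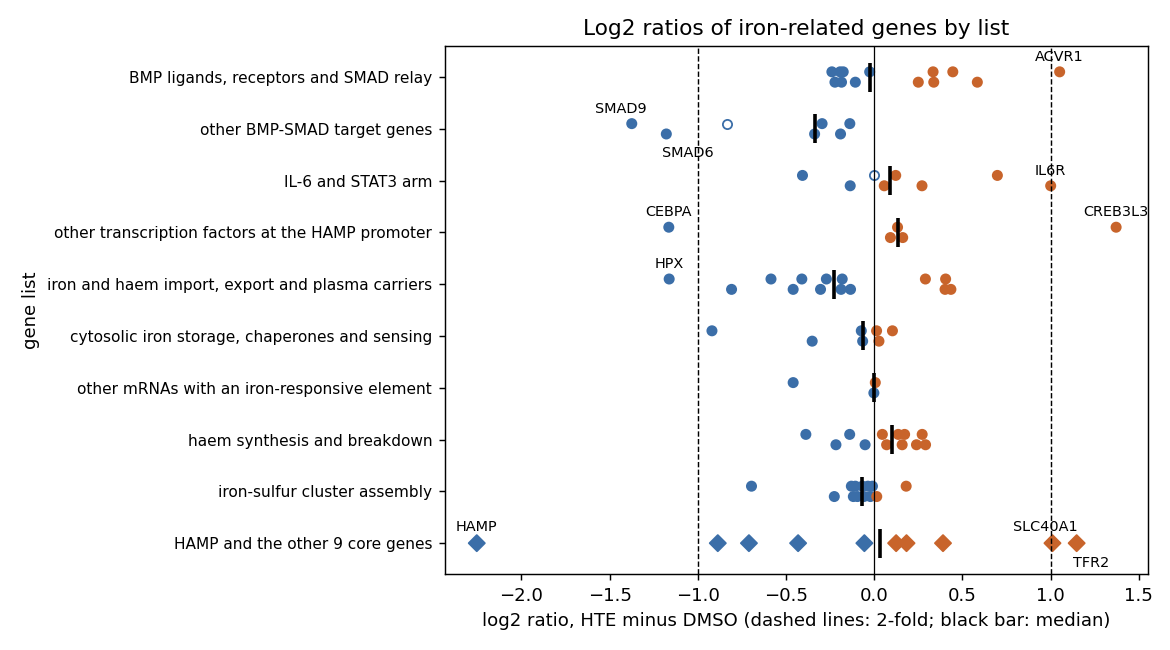
Log2 ratio, HTE minus DMSO (horizontal axis), of the measured genes of each iron-related list and of the 10 core genes (vertical axis), with black bars at list medians, dashed lines at 2-fold, open circles for genes well above background on the DMSO array only, and names for genes past 2-fold. The 7 other BMP-SMAD targets are all below 0 (median -0.34), also under every scaling, while the haem list has a median of 0.10, which is negative without scaling and with spike-in scaling. Of these targets, ID2 and ID3 lie within the software error of bright spots.

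More of the transport genes were lower than higher. Of 15 genes of iron and haem import, export and plasma carriers, 14 were measured, 10 lower and 4 higher, with a median of -0.23, where 49.0% of all genes were lower. HPX, hemopexin, the plasma carrier of haem, was past 2-fold, 1 of 14 genes against 3.03% of all genes. It had 926 in DMSO and 367 in HTE and a ratio of -1.16 (-0.91 with normexp correction). HP, haptoglobin, the haemoglobin carrier, had 42905 and 21753 with a ratio of -0.81. The largest rise was SLC39A8, a zinc and iron importer, at 0.43, and with spike-in scaling all 14 were lower. HEPH, a further iron oxidase, was not well above background. The importers SLC11A2 (-0.46) and SLC39A14 (-0.13) were both lower.

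The 7 genes of cytosolic iron storage, chaperones and sensing were 4 lower and 3 higher, with a median of -0.066, and all 7 were lower without scaling. Their extremes were FTMT, mitochondrial ferritin, at -0.92, and PCBP2, an iron chaperone, at 0.10. ACO1 and IREB2, the iron regulatory proteins, had -0.35 and -0.073. Among other mRNAs with an iron-responsive element, SLC11A2 had -0.46 and EPAS1 -0.0020, and ALAS2 was not well above background. Among the mRNAs of this class, TFRC, FTH1, FTL and SLC40A1 thus had ratios of -0.056, 0.18, 0.39 and 1.01 on their brightest probes. The FTH1 probes ran from -0.11 to 0.18, and the other FTL probe gave -0.023.

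The haem synthesis and breakdown genes were 4 lower and 8 higher of 12, with a median of 0.10, where 49.0% of all genes were lower. Without scaling they were 8 lower and 4 higher. CPOX, a haem synthesis enzyme, had -0.39, and BLVRB, a biliverdin reductase, had 0.29. HMOX1, the inducible haem oxygenase and a stress gene, had 0.27. Of 14 iron-sulfur cluster assembly genes, 13 were measured, 11 lower and 2 higher, with a median of -0.067, where 49.0% of all genes were lower. With the mean over probes or the second brightest probe, 8 were lower and 5 higher. NFS1, the cysteine desulfurase that supplies the sulfur, had -0.70, and -0.31 on its other probe. CIAO1 had 0.18, FDX2 had no matched probe, and with spike-in scaling all 13 were lower. No gene of either list passed 2-fold.

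Over all lists, with each gene counted once, 81 of 87 genes were measured, 47 lower and 33 higher, with a median of -0.058. At 2-fold, 4 were lower, or 4.94% against 3.03% of all genes, and 3 were higher, or 3.70% against 5.25%. These shares are near those of all genes. Of the 7 past 2-fold, SMAD6, SMAD9 and ACVR1 belong to BMP signalling, IL6R to the interleukin-6 arm, CEBPA and CREB3L3 to the factors at the HAMP promoter, and HPX to the plasma carriers.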

How the data were processed

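Total RNA of 1 DMSO-treated and 1 HTE-treated HepG2 culture was labelled with Cy3 and hybridised to Agilent human arrays of 62976 spots (58717 not controls). The authors deposited scanner output, of which the processed signal was used, an intensity that the software had corrected for background and for trends across the slide but not scaled between arrays. The file headers name Feature Extraction 11.5.1.1, and the submitters' processing notes name version 10.7. Both outlier calls (440 spots on the DMSO array and 459 on the HTE array) and control spots were left out. Replicate spots of a probe were averaged on the log2 scale after subtraction of the 75th percentile, so mean signals are geometric means. Of 50532 probes, the 29680 for which a share of 0.5 or more of the spots was well above background on 1 array or both were kept. A probe below this on 1 array entered as a bound against the higher of its own signal and the lowest signal well above background there. Probes were named through their RefSeq accession in the table of GRCh38.p14 (28146 of the 50532 probes, before the filter on background). The arrays were designed on another build, so gene coordinates are given only for promoter sequences. The brightest probe stood for its gene. Some items of the lists and promoters are not reported here.

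The members and gene lists were chosen with earlier results of these data known. The named genes are all members, in each list the genes past 2-fold, the highest and the lowest ratio, and the 2 genes next above and next below HAMP in log2 ratio. Other list genes were named after their values were seen, for their role. With 1 array per condition no test was run, and the number of arrays limits the precision. The alternatives were normexp background correction (offset 50) and quantile normalization in limma, scaling to the median, to the E1A spike-in or none, 3 choices on dim probes, outlier spots kept, the mean over probes, the second brightest probe, and cutoffs of 1.5-fold and 3-fold. The main processing, but not the alternatives, was first checked on simulated data, a noisy copy of the DMSO array with known shifts. The bound for dim probes was not part of this check. The software was Python 3.11.15 (pandas 2.3.3, numpy 2.4.6, matplotlib 3.10.9) and limma 3.58.1 in R 4.3.3.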

Additional observations from a re-analysis of the deposited data

How the results depend on the processing

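No paired analysis was possible because each condition had 1 array. The log2 ratio of HAMP was -2.33 when scaled to the median, -2.42 without scaling and -3.32 when scaled to the E1A spike-in. This last scaling changed each ratio by -1.07 and turned SLC40A1 to -0.056, and the median of all genes became -1.06 (-0.16 without scaling, 0.20 without a filter on dim probes). Members at least 2-fold lower numbered 2 without scaling, 5 with the spike-in and 3 at 1.5-fold. Those higher numbered 1 with normexp or median scaling and 0 without scaling, with the spike-in or at 3-fold. Other iron genes lower numbered 53 with the spike-in, 9 at 1.5-fold and 0 at 3-fold. Those higher numbered 1 with normexp, median scaling or no scaling, and 0 with the spike-in or at 3-fold. All genes lower, 720 as reported, numbered 468 with normexp, 1209 without scaling, 13083 with the spike-in, 1270 without a filter, 1320 with dim probes at their own value, 2505 at 1.5-fold and 129 at 3-fold. All genes higher, 1248 as reported, numbered 825 with normexp, 184 with the spike-in, 2297 without a filter, 2953 at 1.5-fold and 422 at 3-fold. The share of rises among 2-fold changes was 63.4%, and 42.2% without scaling, 50.4% with dim probes at their own value and 1.39% with the spike-in. Of 92 further values of the other 9 members, 53 moved by less than the spread of replicate spots, 38 moved by more and 1 reversed after being past 2-fold, that of SLC40A1. Many of the 53 could not differ, because the choices on dim probes, outlier spots and the mean over probes cannot change most of these ratios. The 53 are therefore no measure of stability. Near background, the software error on a log2 ratio was 0.26 for TFR2 and 0.23 for HFE, against 0.20 for bright probes.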
